A study of Mus musculus with 120 samples.

Results

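The genes described here are 8 Sox transcription factor genes, Sox9, Sox10, Sox2, Sox21, Sox4, Sox11, Sox5 and Sox6, in single cells of the embryonic mouse endolymphatic sac. They were chosen by symbol for their place in the Sox family and for roles known in the ear, and make up 8 of the 48371 gene symbols measured. RNA of single cells was sequenced by Smart-seq2, a protocol that reads full-length transcripts, from wild-type sacs and from sacs of Sox9Y440X/+ embryos, both at the embryonic stage E14.5. Sox9Y440X/+ embryos carry 1 Sox9 allele named for a stop codon in place of a tyrosine and 1 wild-type allele. Strain, sex and number of embryos are not stated in the sources used here. The table held 58 wild-type and 62 Sox9Y440X/+ cells, and 57 and 58 of them, each with at least 1000 genes per its label, were used. In the 5 cells left out, all 8 Sox genes were listed at 0.

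The endolymphatic sac is a closed pouch at the end of a duct of the inner ear. Its epithelium takes part in setting the volume and ion content of the endolymph, partly through ionocyte-type cells that express Foxi1. Sox proteins bind DNA through a shared HMG domain and are sorted into groups by its sequence. The SoxE proteins SOX9 and SOX10 activate transcription in the otic epithelium, and SOX9 is also a main regulator of cartilage, SOX10 of glia and melanocytes. The SoxB gene Sox2 marks the sensory patches of the ear, and Sox21 is its relative with mainly repressive action. The SoxC proteins SOX4 and SOX11 are activators in many immature cells, and the SoxD proteins SOX5 and SOX6 have no activation domain of their own and assist SOX9 in cartilage.

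The Sox9 gene lies on GRCm38 chromosome 11, from 112782224 to 112787760 on the plus strand, and its coding sequence has 507 codons in 3 coding exons. Codon 440 is a tyrosine codon, TAC, at 112785304 to 112785306 in the last coding exon, and it begins the last 68 codons. The reference sequence around it, chr11:112785274-112785336 on the plus strand, is shown because the allele is named for this residue, with codon 440 in capitals.
Sox9 codon 440: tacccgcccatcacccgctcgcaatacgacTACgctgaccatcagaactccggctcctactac
Codon 438, also TAC, stands just before it, and the labels do not say whether the residue number counts on the mouse or the human protein. FPKM values are given per gene, so the Sox9 levels below are those of the mutant and the wild-type allele together and do not check the genotype labels.

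Cells were classed without any Sox gene. Epcam, an epithelial adhesion molecule, was the first criterion, and cells with an Epcam FPKM of at least 1 were called Epcam-positive. FPKM is the number of sequenced fragments of a gene, corrected for the length of its transcript and for all fragments of the cell, and a gene at an FPKM of at least 1 was counted as detected. The other cells were called connective when at least 5 of 16 connective tissue markers were detected. Of the wild-type cells, 55 of 57 were Epcam-positive (96.5%, exact 95% interval 87.9% to 99.6%) and 1 was connective. Of the Sox9Y440X/+ cells, 38 of 58 were Epcam-positive (65.5%, 51.9% to 77.5%) and 18 were connective (31%, 19.5% to 44.5%). Epcam FPKM in Epcam-positive cells started at 182.5 for wild type and 49.7 for Sox9Y440X/+, and no cell lay between 0 and 10. Connective cells had a median of 11 of the 16 connective markers and 0 of 16 epithelium markers. Of 8 chondrocyte markers, Col2a1 was detected in 18 and Col9a1 in 17 of the 18 Sox9Y440X/+ connective cells, and Acan and Lect1 in 2 each. Matn1, Matn3, Comp and Snorc (listed under its older symbol, 3110079O15Rik) were at 0 in all 18.

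Each genotype is 1 sample, because the labels tie no cell to an embryo, litter or plate. Cells are not replicates, so no test was made, and every SD is over cells. Intervals on shares cover counting error only. Wild-type Epcam-positive cells had a median of 3270 genes each (1209 to 6331), and those of Sox9Y440X/+ had 4513 (1959 to 6323). Of the Epcam-positive cells, 33 of 55 from wild type and 0 of 38 from Sox9Y440X/+ had Xist, the RNA that coats the inactive X chromosome. Genotype cannot be told apart from embryo, sex or handling in these cells. One Sox9Y440X/+ Epcam-positive cell had 5 connective and 1 epithelium marker. Each result was also computed without it.

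Sox9, the gene that carries the mutation, was detected in more of the Epcam-positive cells of the Sox9Y440X/+ sample. In wild-type Epcam-positive cells its FPKM ran from 0 through a median of 1.67 to 25.2, and it was detected in 28 of 55 cells (50.9%, 37.1% to 64.6%). In Sox9Y440X/+ Epcam-positive cells it ran from 0 through a median of 11.3 to 55.2, and it was detected in 37 of 38 cells (97.4%, 86.2% to 99.9%). The groups overlapped: 36 of 38 Sox9Y440X/+ cells stood above the wild-type median, 6 stood above the highest wild-type cell, and 6 of 55 wild-type cells stood above the Sox9Y440X/+ median. Of the wild-type cells, 15 were listed at 0 and 12 lay above 0 and under 1. Mean FPKM values were 4.09 (wild type) and 16.4 (Sox9Y440X/+), and the mean of log2(FPKM + 1) was 1.55 ± 1.53 (SD, n = 55 cells) and 3.58 ± 1.38 (SD, n = 38 cells). The difference of these log2 means was 2.03, above that of 99.6% of the genes tested.

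Sox10, the other SoxE gene of the otic epithelium (chromosome 15, 79154908 to 79165240, minus strand), stood the other way. In wild-type Epcam-positive cells its FPKM ran from 0 through a median of 0.30 to 121, and it was detected in 26 of 55 cells (47.3%, 33.7% to 61.2%). Where it was detected in wild type, FPKM ran from 2.09 through a median of 29.7 to 121. Another 3 cells lay above 0 and under 1, and 26 were listed at 0. In Sox9Y440X/+ Epcam-positive cells it was detected in 2 of 38 cells (5.26%, 0.644% to 17.7%), at FPKM values of 42.2 and 10.9, and 34 cells were at 0. These 2 cells lay inside the wild-type range, and 9 wild-type cells stood above the higher of them. Mean FPKM values were 15.8 (wild type) and 1.43 (Sox9Y440X/+), and 77.9% of the latter sum came from 1 cell. The mean of log2(FPKM + 1) was 2.17 ± 2.48 (SD, n = 55 cells) and 0.27 ± 1.04 (SD, n = 38 cells), a difference of -1.90, below which lay 0.153% of the genes tested.

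Of the 8 Sox genes, 6 reached detection in 10% or more of either genotype's cells and entered the count of differences between genotypes. Sox10 entered through the wild-type cells alone, and Sox11 through the Sox9Y440X/+ cells alone. By a rule of 1 log2 unit, Sox9 was higher and Sox10 lower in Sox9Y440X/+ Epcam-positive cells, 1 of 6 in each direction. Over all 10431 genes tested, 7.61% were higher and 1.43% lower by this rule. At a pseudocount of 10 neither passed it, Sox9 at 0.81 and Sox10 at -0.78. The count higher was 2 at a pseudocount of 0.1, as a ratio of mean FPKM and against wild-type cells without Xist, and the count lower was 2 as a ratio of mean FPKM. The median difference was 0.32 over the 6 Sox genes and 0.22 over all genes tested. The count has no test.

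**Figure D1:**
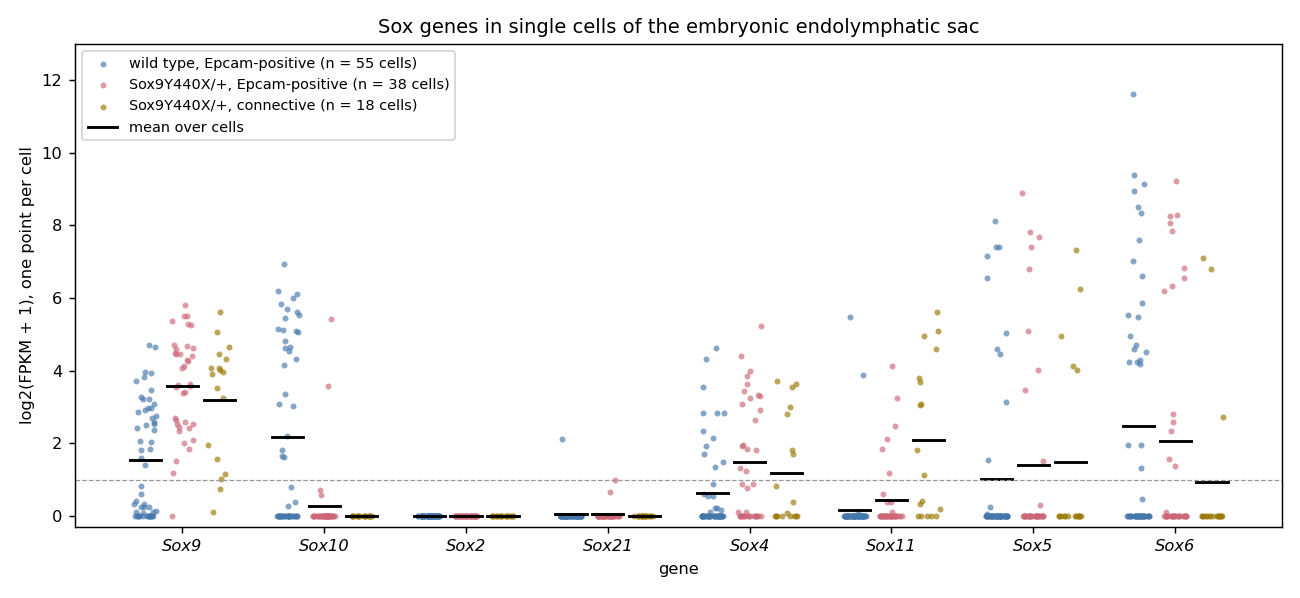
Level of each Sox gene in every cell used, as log2(FPKM + 1) on the vertical axis, with genes along the horizontal axis, coloured by genotype and class; black lines are means over cells and the dashed line marks an FPKM of 1. For Sox9 the Sox9Y440X/+ Epcam-positive mean of 3.58 stands above the wild-type mean of 1.55, and for Sox10 the means are 0.27 and 2.17.

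The Sox9 and Sox10 differences were also present among cells with like numbers of genes. In cells with 2500 to 4500 genes, Sox9 was present in 14 of 27 cells of the wild type and in 16 of 16 of Sox9Y440X/+. In cells with over 4500 genes it was detected in 11 of 16 and 19 of 20. In the same 2 ranges Sox10 was detected in 14 of 27 and 11 of 16 wild-type cells, and in 0 of 16 and 2 of 20 Sox9Y440X/+ cells. Only 2 Sox9Y440X/+ cells had under 2500 genes, too few to compare with the 12 wild-type cells there, of which 3 had Sox9 and 1 had Sox10. Among wild-type cells, Sox9 was detected in 15 of 33 cells with Xist and 13 of 22 without it, and Sox10 in 16 of 33 and 10 of 22. Against only the wild-type cells without Xist, the differences were 1.73 for Sox9 and -1.57 for Sox10.

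**Figure D2:**
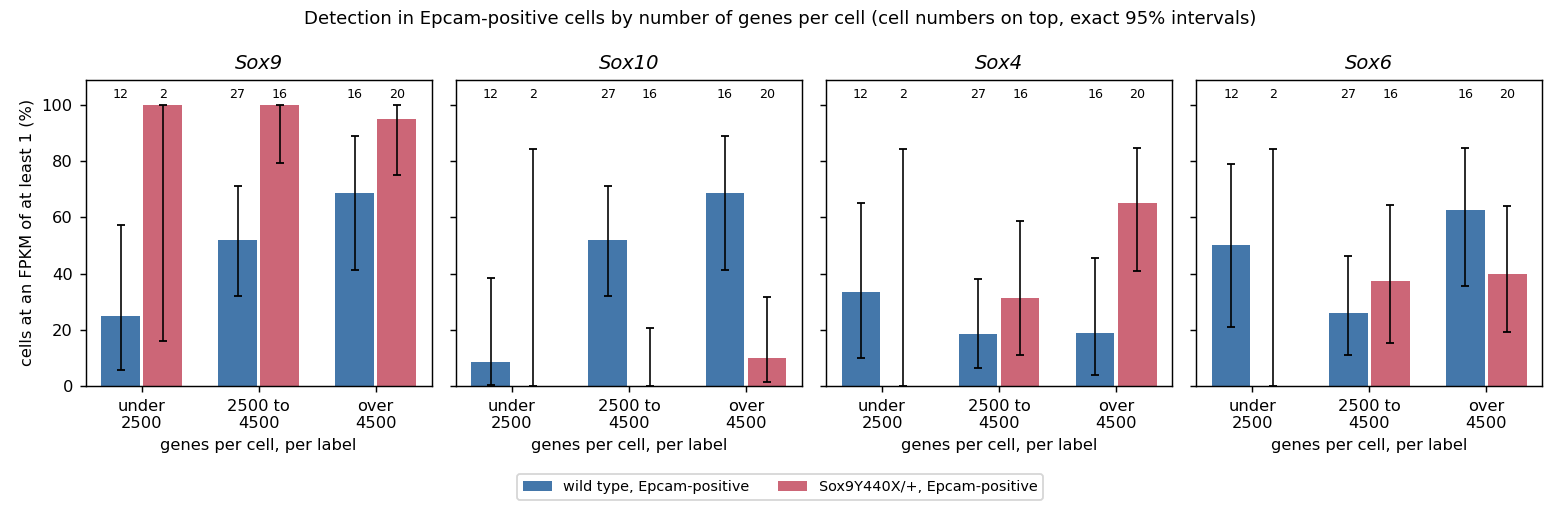
Share of Epcam-positive cells with Sox9, Sox10, Sox4 or Sox6 at an FPKM of at least 1 (vertical axis, percent), by genes per cell as labelled (horizontal axis) and genotype; error bars are exact 95% intervals and numbers on top are cells. In cells with 2500 to 4500 genes Sox9 was found in 14 of 27 cells of wild type and 16 of 16 of Sox9Y440X/+, and Sox10 in 14 of 27 and 0 of 16.

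Because SOX10 also marks glia and melanocytes, several markers of both were read in the 26 wild-type Epcam-positive cells with Sox10. The glial genes Foxd3, Fabp7 and Cdh19 and the melanocyte genes Tyr, Tyrp1, Mlana, Pmel and Mitf were not detected in any of them. S100b was detected in 6 of these 26 cells and Dct in 4. In the 29 cells without Sox10 the counts were 4 and 3. Erbb3, a neuregulin receptor, was detected in 6 of 26 cells with Sox10 and 10 of 29 without it. Oc90, which encodes a protein of otoconia and was taken as an otic marker, was detected in 52 of 55 wild-type cells, and all 26 cells with Sox10 were among them. In Sox9Y440X/+ Oc90 was detected in 12 of 38 Epcam-positive cells, of which 12 had Sox9 and 1 had Sox10; of the 26 cells without Oc90, 1 had Sox10. The share of cells with Oc90 thus moved with genotype in the same direction as that of Sox10, and its part in the Sox10 result was not tested beyond these counts.

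In connective cells of the Sox9Y440X/+ sample Sox9 was found in most cells and Sox10 in none. Sox9 ran from 0.0674 through a median of 14.4 to 48.4 FPKM and was detected in 16 of 18 cells (88.9%, 65.3% to 98.6%). Its mean of log2(FPKM + 1) was 3.20 ± 1.66 (SD, n = 18 cells), 0.38 below that of the Epcam-positive cells, and the ranges overlapped, with 10 of 18 connective cells above the Epcam-positive median. Sox10 was listed at 0 in all 18 connective cells, which allows a share of up to 16.7% as 3 of 18 cells, while the exact interval reaches 18.5%. The only wild-type connective cell had Sox9 at 17.3 FPKM and Sox10 at 0, so connective cells could not be compared between genotypes.

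**Figure D3:**
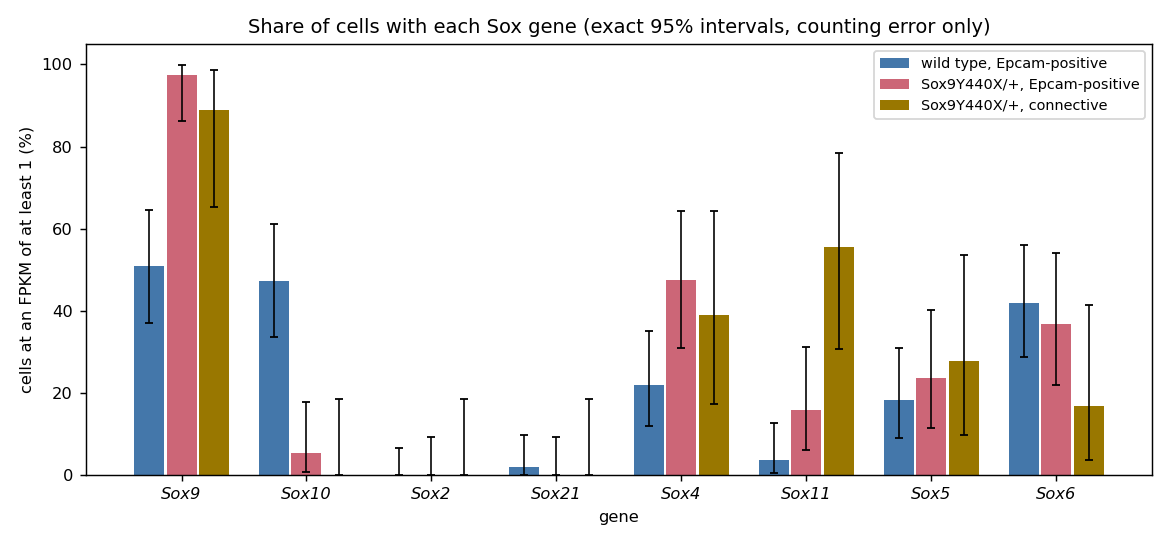
Share of cells with each Sox gene at an FPKM of at least 1 (vertical axis, percent), with genes along the horizontal axis, by genotype and class; error bars are exact 95% intervals, which cover counting error only. Sox10 is at 47.3% in wild-type Epcam-positive cells, 5.26% in Sox9Y440X/+ Epcam-positive cells and 0 in connective cells, and Sox11 is at 55.6% in connective cells.

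Of the SoxB genes, Sox2 (chromosome 3, 34650405 to 34652461, plus strand), which marks prosensory epithelium, was listed at 0 in all 120 cells. By the same limit of 3 cells, a count of 0 allows a share of up to 5.45% of wild-type Epcam-positive, 7.89% of Sox9Y440X/+ Epcam-positive and 16.7% of connective cells. Sox21 (chromosome 14, 118233232 to 118237030, minus strand) was detected in 1 wild-type Epcam-positive cell, at 3.37 FPKM. In 2 Sox9Y440X/+ Epcam-positive cells it lay under the limit, at 0.591 and 0.988. Of 12 genes known to accompany SOX2 in sensory and neurogenic parts of the ear, only Jag1, a Notch ligand, reached detection in 10% of Epcam-positive cells of either genotype, with a difference of -0.08 between genotypes.

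Of the SoxC genes, Sox4 (chromosome 13, 28948919 to 28953713, minus strand) was the more widespread in epithelium. It was detected in 12 of 55 wild-type Epcam-positive cells (21.8%, 11.8% to 35%), with a median of 0 and a highest FPKM of 23.5. In Sox9Y440X/+ Epcam-positive cells it was detected in 18 of 38 (47.4%, 31% to 64.2%), with a median of 0.838 and a highest FPKM of 36.8. The ranges overlapped, with 1 Sox9Y440X/+ cell above the highest wild-type cell, and the intervals of the shares overlapped too. The means of log2(FPKM + 1) were 0.64 ± 1.19 (SD, n = 55 cells) and 1.47 ± 1.62 (SD, n = 38 cells), a difference of 0.83, which stayed under 1 log2 unit. The difference passed 1 log2 unit at a pseudocount of 0.1 (1.62), as a ratio of mean FPKM (1.43) and against wild-type cells without Xist (1.17), in which Sox4 was detected in 2 of 22 cells as against 10 of 33 cells with Xist. By number of genes, among cells with 2500 to 4500 genes, 5 of 27 wild-type cells had Sox4, as did 5 of 16 from Sox9Y440X/+. Among cells with more, it was 3 of 16 and 13 of 20.

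Sox4 is overlapped on the opposite strand by Gm26735. Whether the authors' processing used strand is not stated in the sources used here, so reads of this pair cannot be told apart. Among Epcam-positive cells that had Sox4, Gm26735 was present in 5 of 12 from wild type and 11 of 18 from Sox9Y440X/+, and among connective cells that had Sox4, in 5 of 7. In Epcam-positive cells of both genotypes together, only 1 cell had Gm26735 without Sox4. The same limit holds for Sox5, Sox6 and Sox21, whose opposite-strand genes were rarer. Those of Sox5 were detected in 3 of 18 connective cells, 2 of them with Sox5, and those of Sox6 and Sox21 in none of the 18.

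Sox11 (chromosome 12, 27334264 to 27342574, minus strand) was rare in epithelium and present in most connective cells. It was detected in 2 of 55 wild-type Epcam-positive cells (3.64%, 0.443% to 12.5%), at 13.9 and 43.2 FPKM, and in 6 of 38 Sox9Y440X/+ Epcam-positive cells (15.8%, 6.02% to 31.3%), at up to 16.5 FPKM. Both of those wild-type cells had under 2500 genes, and all 6 of the Sox9Y440X/+ cells had over 4500. In Sox9Y440X/+ connective cells it was detected in 10 of 18 (55.6%, 30.8% to 78.5%), with a median of 1.86 and a highest FPKM of 48.2. In these, 4 cells stood above every Sox9Y440X/+ Epcam-positive cell, and 5 cells were at 0. The means of log2(FPKM + 1) were 0.43 ± 0.99 (SD, n = 38 cells) in Epcam-positive and 2.10 ± 2.11 (SD, n = 18 cells) in connective cells, a difference of 1.66. The connective cells had the lower median number of genes, 3623.5 against 4513. Sox4 did not follow this pattern: it was detected in 7 of 18 connective cells (38.9%, 17.3% to 64.3%), and its difference was -0.28.

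The SoxD genes reached the highest FPKM values of the group. Sox5 (chromosome 6, 143828425 to 144781977, minus strand) was detected in 10 of 55 wild-type Epcam-positive cells (18.2%, 9.08% to 30.9%), in 9 of 38 Sox9Y440X/+ Epcam-positive cells (23.7%, 11.4% to 40.2%) and in 5 of 18 connective cells (27.8%, 9.69% to 53.5%). The median was 0 in all 3 groups, and the highest FPKM was 276.5, 475 and 159.6. The intervals of the shares overlapped, and the difference between genotypes in Epcam-positive cells was 0.38.

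Sox6 (chromosome 7, 115470872 to 116038796, minus strand) was detected in 23 of 55 wild-type Epcam-positive cells (41.8%, 28.7% to 55.9%) and in 14 of 38 Sox9Y440X/+ Epcam-positive cells (36.8%, 21.8% to 54%). Its median was 0 in both, and its highest FPKM was 3174 and 597. One wild-type cell held 50.1% of the summed wild-type FPKM. The means of log2(FPKM + 1) were 2.46 ± 3.36 (SD, n = 55 cells) and 2.06 ± 3.20 (SD, n = 38 cells), a difference of -0.40, much smaller than the spread over cells. As a log2 ratio of mean FPKM, which that 1 cell weighs on, the difference was -1.07. In connective cells Sox6 was detected in 3 of 18 (16.7%, 3.58% to 41.4%), at 5.63, 110 and 136 FPKM, and lay 1.14 log2 units below the Epcam-positive cells. That difference shrank to -0.92 in cells with 2500 to 5500 genes and to -0.72 with classes set by marker counts alone, so it passed 1 log2 unit under some settings only. The annotation holds 7 coding transcripts of Sox5 and 10 of Sox6, which a value per gene does not separate.

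Between Sox9Y440X/+ connective and Epcam-positive cells, 5 of the 8 Sox genes reached detection in 10% of either class's cells. Of these 5, Sox11 was higher and Sox6 lower in connective cells by 1 log2 unit. Over all 11563 genes tested in this comparison, 8.45% were higher and 15.7% lower. At a pseudocount of 10 none of the 5 passed 1 log2 unit. The median difference was -0.28 over the 5 Sox genes and -0.16 over all genes tested.

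Sox9 and Sox10 were found together in part of the wild-type cells. Of the 55 wild-type Epcam-positive cells, 16 had both genes, 12 had only Sox9 of the pair, 10 had only Sox10 and 17 had neither. The share with both was 29.1%, and it was 10.9% at a detection limit of 5 FPKM and 7.27% at 10. Sox10 was detected in 16 of 28 cells with Sox9 (57.1%, 37.2% to 75.5%) and in 10 of 27 without it (37%, 19.4% to 57.6%). These intervals overlapped, and the cells with Sox9 had the higher median number of genes, 4032.5 against 2989. Over the 55 cells Pearson's r of the log2 levels was 0.12. Cells share sequencing depth, so r is given only as a description. In Sox9Y440X/+ Epcam-positive cells both cells with Sox10 had Sox9, and 35 cells had Sox9 alone of the pair.

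**Figure D4:**
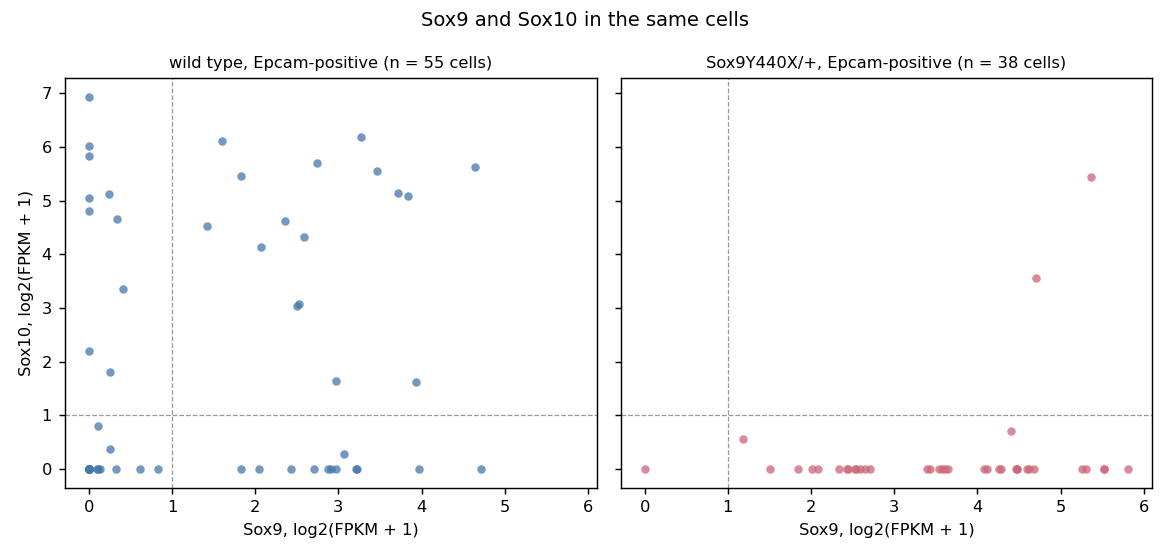
Sox9 (horizontal axis) and Sox10 (vertical axis) in the same Epcam-positive cells, both as log2(FPKM + 1), 1 point per cell and 1 panel per genotype; dashed lines mark an FPKM of 1. Of 55 wild-type cells 16 lie above both lines and 10 have Sox10 only, and of 38 Sox9Y440X/+ cells 2 lie above both lines.

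Sox6, the most frequent SoxD gene, was found in 14 of 26 wild-type Epcam-positive cells with Sox10 (53.8%, 33.4% to 73.4%) and in 9 of 29 without it (31%, 15.3% to 50.8%). The cells with Sox10 again had more genes, with medians of 3936.5 and 2727. Over the 55 cells r was 0.34 between Sox10 and Sox6 and -0.12 between Sox9 and Sox6. Sox5 and Sox6, which can pair as proteins, were found together in 3 wild-type and 4 Sox9Y440X/+ Epcam-positive cells and in 1 of the 18 Sox9Y440X/+ connective cells. Both wild-type Epcam-positive cells with Sox11 had Sox6, and neither had Sox9, Sox10, Sox4 or Sox5.

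In Sox9Y440X/+ Epcam-positive cells, where 37 of 38 cells had Sox9, Sox4 was the gene of the group most often found beside it, whereas in wild type it was Sox10. Sox9 was found with Sox4 in 17 of 38 cells, with Sox6 in 14, with Sox5 in 9, with Sox11 in 6 and with Sox10 in 2. With Sox9 in nearly every cell, these counts repeat each gene's own detection, which was 18 cells for Sox4 and 14 for Sox6. In the 55 wild-type cells Sox9 was found with Sox10 in 16, with Sox6 in 11, with Sox5 in 6, with Sox4 in 5 and with Sox11 in 0. Sox10 (26 cells) and Sox6 (23 cells) were also the most often detected of these 5 genes in wild type. The change from Sox10 to Sox4 thus follows single-gene detection and does not measure pairing. In the 18 connective cells Sox9 was found with Sox11 in 9, with Sox4 in 7, with Sox5 in 4 and with Sox6 in 3. Over those 18 cells r was 0.44 between Sox9 and Sox6, 0.41 between Sox9 and Sox11 and -0.39 between Sox9 and Sox5, over few points.

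The number of the 8 Sox genes per cell had a median of 2 in all 3 groups. None of the 8 was detected in 8 of 55 wild-type Epcam-positive cells, while each Sox9Y440X/+ Epcam-positive or connective cell had at least 1. Those 8 cells had 1543 to 3471 genes each, under the Sox9Y440X/+ Epcam-positive median of 4513. In some of them Sox9 lay above 0 and under an FPKM of 1. The most frequent sets in wild type were Sox9 alone in 7 cells, Sox9 with Sox10 in 6, and Sox9, Sox10 and Sox6 in 5. In Sox9Y440X/+ Epcam-positive cells they were Sox9 alone in 9 cells, Sox9 with Sox4 in 5, and Sox9, Sox6 and Sox4 in 5. Of the 28 pairs of the 8 genes, 15 were seen in wild-type Epcam-positive, 13 in Sox9Y440X/+ Epcam-positive and 10 in connective cells. Not all 28 could be seen. Sox2 was detected in no group, Sox21 in neither Sox9Y440X/+ group and Sox10 in no connective cell. The 3 counts thus have different upper limits and are not compared.

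**Figure D5:**
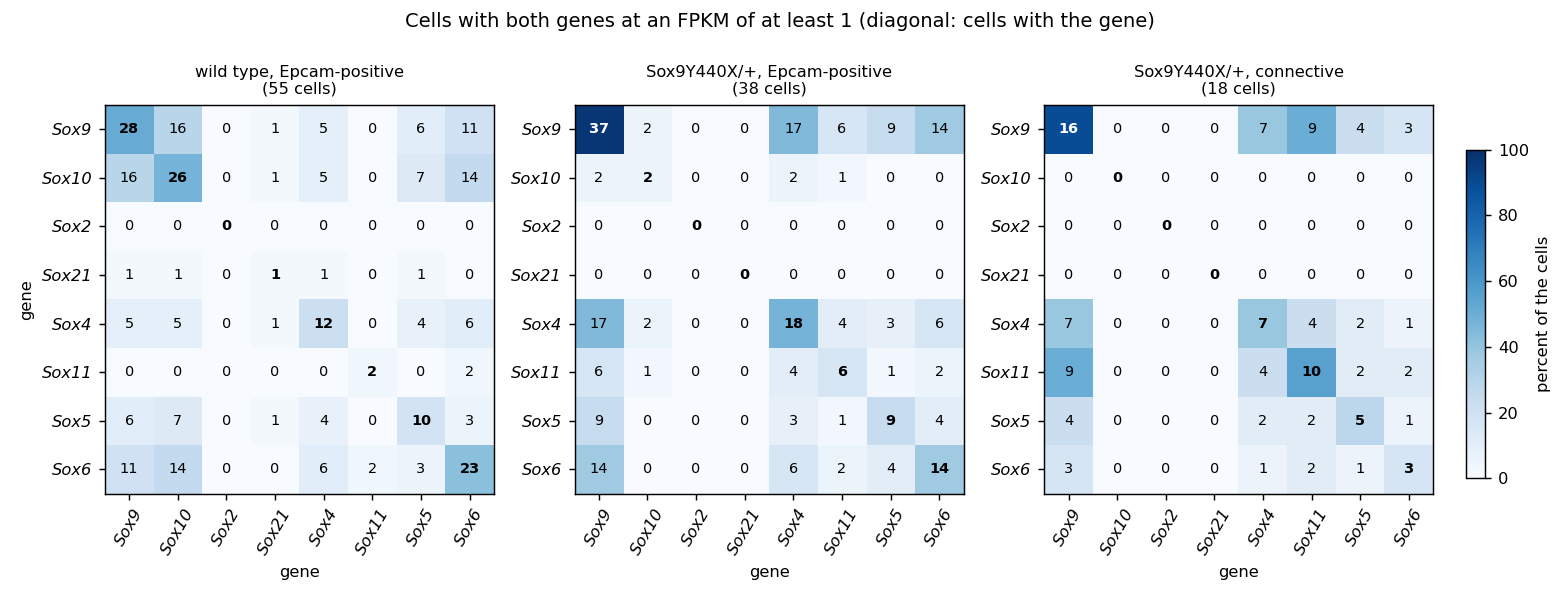
Number of cells in which both genes of a pair had an FPKM of at least 1, for the 8 Sox genes on both axes and 1 panel per group; the diagonal gives cells with the gene, and the colour is the percent of the group's cells. Sox9 and Sox10 share 16 of 55 wild-type cells and 2 of 38 Sox9Y440X/+ Epcam-positive cells, and Sox9 and Sox11 share 9 of 18 connective cells.

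Foxi1, the transcription factor of ionocyte-type cells, was present in 22 Epcam-positive cells of wild type and 7 of Sox9Y440X/+. In wild type, Sox9 was detected in 12 of 22 cells with Foxi1 and 16 of 33 without it, Sox10 in 9 and 17, and Sox6 in 11 and 12. In Sox9Y440X/+ Sox9 was detected in 7 of 7 cells with Foxi1, from 1.84 through a median of 4.43 to 55.2 FPKM, and in 30 of 31 without it, with a median of 15.9. Sox6 was detected in 6 of these 7 cells (85.7%, 42.1% to 99.6%), with a median of 113 FPKM, and in 8 of 31 cells without Foxi1 (25.8%). Sox10 was at 0 in all 7, and both Sox9Y440X/+ cells with Sox10 were without Foxi1. With 7 cells, these shares have wide intervals.

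Genes known as targets or companions of each group were read in the same cells. Of 18 cartilage-type targets of SOX9, SOX5 and SOX6, 10 were tested between genotypes in Epcam-positive cells, and 0 were higher and 2 lower by 1 log2 unit, beside 7.61% and 1.43% of all genes tested. The 2 were Lect1 (chondromodulin, now Cnmd), at -1.68 and detected in 18 of 55 and 3 of 38 cells, and Col9a3, a collagen chain, at -1.22 and in 29 and 13 cells. Lect1 entered through the wild-type cells alone, where it stood higher. The list's median was -0.19, as against 0.22 over all genes tested. Between connective and Epcam-positive cells of the Sox9Y440X/+ sample, 13 of the 18 were tested, 6 were higher and 1 was lower, beside 8.45% and 15.7% of all genes tested, with a median of 0.97 as against -0.16 over all. Some entered through the connective cells alone, among them Acan (1 of 38 and 2 of 18 cells) and Lect1 (3 of 38 and 2 of 18). The tested set and its median thus depend in part on that filter. The largest differences were those of Col9a1 (6.32, detected in 4 of 38 and 17 of 18 cells), Col2a1 (5.83, in 13 and 18 cells) and Col9a3 (5.49, in 13 and 18 cells), all fibrillar or fibril-associated collagens of cartilage. Of these 18 connective cells 16 had Sox9, 5 had Sox5 and 3 had Sox6.

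Of 15 glial and melanocyte targets of SOX10, 4 were tested between genotypes and none passed 1 log2 unit in either direction, with a median of 0.32 as against 0.22 over all genes tested. Mbp, a myelin protein, differed by 0.78, Dct, a melanin enzyme, by 0.54 and S100b, a calcium-binding protein, by -0.53. In connective as against Epcam-positive cells 3 were tested and all 3 were lower, with a median of -1.29 as against -0.16 over all genes tested, of which 15.7% were lower. Mbp differed by -1.57, Erbb3 by -1.29 and Dct by -1.22, and none was detected in the 18 connective cells. All 3 thus entered the count through the Epcam-positive cells alone and could only come out lower. Of the SoxC-associated genes 7 of 8 were matched and 4 were tested between genotypes, with a median of 0.73 and 1 higher, beside 7.61% of all genes tested. Tead2, a TEAD transcription factor, was higher by 1.67 and detected in 22 of 55 and 27 of 38 cells. Sema3c, a secreted semaphorin, and Mex3a, an RNA-binding protein, differed by 0.80 and 0.67. They were detected in 3 and 1 of 55 wild-type cells, and in 8 and 10 of 38 Sox9Y440X/+ cells. Both thus entered through the Sox9Y440X/+ cells alone and could hardly come out lower, so the median of 0.73 depends in part on the filter. In connective cells 4 were tested and 1 was higher, beside 8.45% of all genes tested: Cdc42ep3, a Cdc42 effector, was higher by 3.02, and Sema3c and Mex3a differed by -0.95 and -0.35. Of the 12 genes that accompany SOX2, 4 were tested there, with Bmp4 (1.87) and Eya1 (1.15) among the 3 that were higher and Jag1 (-1.22) lower, beside 8.45% and 15.7% of all genes tested. The 3 higher genes reached 10% in connective cells only, and Jag1 in Epcam-positive cells only. Each thus entered through the class where it stood higher, and its direction was largely set by the filter.

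The genes whose log2 levels followed a Sox gene most closely over the 55 wild-type Epcam-positive cells were Pofut2, Mfsd5 and Commd3 for Sox9 (r of 0.54, 0.52 and 0.47) and Agt, Irf1 and Sf1 for Sox10 (0.55, 0.52 and 0.50). They were the top 3 of 3880 genes compared for each. Over the 38 Sox9Y440X/+ cells the same genes had r of 0.24, 0.24 and 0.11 with Sox9, and 0.08, -0.15 and -0.09 with Sox10. Sox10 was detected in only 2 of these 38 cells, too few for its r there to be compared with wild type. Agt, which encodes angiotensinogen, was present in 33 of 55 cells (wild type) and 8 of 38 cells (Sox9Y440X/+), with mean FPKM of 125 and 11.1. Sox10 and Agt thus both stood lower in Sox9Y440X/+ Epcam-positive cells. For the other genes of the group the closest in wild type were Cdkn1c (0.53) for Sox4, Impad1 (0.49) for Sox5 and Rnaseh2b (0.52) for Sox6. Over the Sox9Y440X/+ cells these had r of -0.03, 0.09 and -0.19. In Sox9Y440X/+ the closest genes were Mcee (0.59) for Sox9, Rab11fip1 (0.64) for Sox4 and Agap1 (0.66) for Sox6. Each was the top of 4953 genes compared, and over the wild-type cells they had r of -0.06, -0.01 and -0.03. The r of a Sox gene with the number of genes per cell, which cells share, ran from -0.08 to 0.35. With rank correlation in place of Pearson's r, 3 of the 8 top-3 sets kept most of their genes and 5 did not.

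The other 11 Sox genes of the table were mostly absent from these cells: Sox1, Sox14, Sox15 and Sox17 were at 0 in all of them, and 6 were detected in some cell. Sox13, the remaining SoxD gene, was detected in 10 of 55 wild-type Epcam-positive, 6 of 38 Sox9Y440X/+ Epcam-positive and 1 of 18 connective cells, and Sox12, the remaining SoxC gene, in 3, 4 and 0. Sox8, the remaining SoxE gene, was above 0 in 1 cell and never reached an FPKM of 1.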

How the data were processed

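Per the labels' protocols, libraries of single dissociated cells were made by Smart-seq2. The authors deposited 1 table of FPKM values with 48555 gene entries and 120 cells, and no value column was without a sample. Tools named in the submitters' processing notes are Cufflinks, HISAT2, HTSeq and SAMtools 0.1.18, with the build mm10; roles, settings and strand handling were not given in the sources used here. FPKM carries no counts, so the depth per cell is unknown, and each cell's labelled gene number stands in for it. An exact 0 may be a failed estimate: Gapdh was at 0 in 2 and Eef2 in 5 of the 115 cells used.

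Entries of 1 symbol were summed. Coordinates and the codon sequence come from GENCODE release M21 on GRCm38, the assembly of mm10. Sox10 has a later version of its identifier there. Differences are of means of log2(FPKM + 1), with a pseudocount of 1, which understates differences of low genes, over genes detected in 10% or more of either group's cells. A difference of at least 1 log2 unit was counted. Shares have exact Clopper-Pearson 95% intervals, and a count of 0 allows 3 cells of the total. The code was tested on simulated data. Python 3.11.15 with pandas 2.3.3 and scipy 1.17.1 was used. The highest correlation between 2 cells was 0.698, so no cell was taken as a repeat of another. Doublets were not called.

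The Sox genes, lists, classes and rules were chosen with earlier results of these data known. Named genes were the Sox genes, up to 3 members of each list with the largest difference, and the 3 genes with the highest r for each Sox gene in at least 10 cells, among genes detected in at least 25% of cells. Of these, not all are printed, and some glial markers are not reported here. Alternatives were other pseudocounts, a ratio of means, scaling, detection limits, choices of cells and class rules, and rank correlation.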

Additional observations from a re-analysis of the deposited data

Results flagged for a closer look

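One Sox9Y440X/+ cell that was neither Epcam-positive nor connective had Sox7 at 47.2 FPKM and Sox18 at 73.7 FPKM. The highest wild-type values were 0.117 for Sox7 and 0 for Sox18, and the comparisons above do not use this cell. Both genes belong to the SoxF group, known from endothelium, and all 7 of the 7 endothelium markers were detected in the cell, with Pecam1 at 131, Kdr at 82.5 and Cdh5 at 49.9 FPKM. Sox9, Sox10 and Sox11 were at 0 in it. It is a single cell with no replicate.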

How the results depend on the processing

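No paired analysis was possible because a cell's number only names it and nothing was tested. Between genotypes in Epcam-positive cells, Sox9 differed by 3.24 at a pseudocount of 0.1 and 0.81 at 10, and Sox10 by -3.23 and -0.78, and by -3.47 as a log2 ratio of mean FPKM. The count of Sox genes higher by 1 log2 unit was 2 at a pseudocount of 0.1, as a ratio of means and against wild-type cells without Xist, and 0 at a pseudocount of 10. The count of those lower was 0 at 10 and 2 as a ratio of means. Between connective and Epcam-positive cells, both counts were 0 at 10, and the count of those lower was 0 in cells with 2500 to 5500 genes and 0 with classes set by marker counts. The share of wild-type cells with both Sox9 and Sox10, 29.1%, was 10.9% at a detection limit of 5 FPKM and 7.27% at 10. Of 164 differences under the alternatives run, 135 kept within the set limits, 29 moved and 0 of those that passed 1 log2 unit turned. Some of the 135 could not move. Sox2 was at 0 in every cell, so its differences stayed at 0. An Epcam limit of 10 FPKM and adding back the cells left out changed none of the groups compared. The tally therefore overstates how far the results were tried. Leaving out the Epcam-positive cell with more connective markers was chosen after seeing the data, and no value moved past those limits without it. Depth is unknown, so no error of a single FPKM value can be given.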

Other observations

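The single wild-type connective cell had 10 of 16 connective markers. Its SoxD genes stood high, Sox5 at 273 and Sox6 at 221 FPKM, above all 18 Sox9Y440X/+ connective cells, in which the highest values were 159.6 and 136. Sox11 was at 6.82 and Sox12 at 3.41 FPKM in it, and Sox4, Sox10, Sox2 and Sox21 were at 0. A single cell gives no comparison between genotypes.

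The Sox9Y440X/+ Epcam-positive cell with more connective than epithelium markers had Epcam at 82.2 FPKM and 5555 genes. In it Sox9 was at 10.6, Sox5 at 223, Sox6 at 93.2 and Sox4 at 2.81 FPKM. A wild-type cell of neither class, with 8 epithelium markers and Epcam at 0, had Sox9 at 4.89 and Sox10 at 0.545 FPKM. The other Sox9Y440X/+ cell of neither class had 4 connective markers, and Sox11 at 2.35 FPKM.

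Sox30, a family member known from the male germ line, was detected in 2 Sox9Y440X/+ Epcam-positive cells, at 15.3 and 30.9 FPKM, and in no wild-type cell, where a count of 0 allows a share of up to 5.45% of Epcam-positive cells. Sox3, the X-linked SoxB gene, was detected in 1 connective cell, at 5.0 FPKM.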
